A study of Mus musculus with 16 samples.

Results

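The genes described here are 8 that are commonly read as a sign of interferon-gamma action, namely Gbp2, Gbp3, Gbp5, Irf1, Cxcl9, Cxcl10, Cd274 and Socs1, out of 25791 gene symbols measured. They were chosen by name, with their values in these libraries already known, among them a very high Gbp2 value in 1 library, so their levels and group differences are given as a description, with no p-value for any of them. RNA came from isolated glomeruli, the filtering tufts of the kidney, of mice of the genotype eNOS-/-//db/db, which lack endothelial nitric oxide synthase and carry the db leptin receptor mutation on both alleles. These obese, diabetic mice with endothelial dysfunction serve as a diabetic nephropathy model. In the RAAS-blocked group (7 libraries) the renin-angiotensin-aldosterone system was blocked with lisinopril at 20 mg/day, an inhibitor of angiotensin-converting enzyme, together with losartan at 30 mg/day, which blocks the type 1 receptor for angiotensin II, both in the drinking water. Dosing began between 10 and 12 weeks of age and lasted until 26 weeks. The untreated group (9 libraries) had the same genotype and no drug, and mice without diabetes were not analysed here. Replicates are numbered 0 to 6 and 0 to 8, as in the labels.

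Interferon-gamma is a cytokine made mainly by T cells and natural killer (NK) cells. It binds a receptor built from IFNGR1 and IFNGR2, which signals through the kinases JAK1 and JAK2. Gamma-activated sites (GAS) in DNA receive the signal and switch on a first set of genes that includes Irf1, and IRF1 in turn binds interferon-stimulated response elements (ISRE) of further genes. Type I interferons act through an overlapping set of factors, so many of these genes answer to both. In glomeruli, endothelial cells, mesangial cells, podocytes and resident macrophages all carry the receptor.

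Promoter sequences of 5 of the genes are shown because the genes moved together in 1 library and hold different response-element letters. Each is the 250 bases before the annotated start in RefSeq GRCm38.p6, read 5′ to 3′ on the strand of the gene. All 8 genes had an entry, and Gbp3 and Irf1 had 2 starts each, of which the first is used. Capitals mark matches, on either strand, to the GAS letters TTCNNNGAA, the ISRE core (GAAA, any 2 bases, GAAA) or the NF-kappaB motif.
Gbp2 (chr3:142620413-142620662, plus strand): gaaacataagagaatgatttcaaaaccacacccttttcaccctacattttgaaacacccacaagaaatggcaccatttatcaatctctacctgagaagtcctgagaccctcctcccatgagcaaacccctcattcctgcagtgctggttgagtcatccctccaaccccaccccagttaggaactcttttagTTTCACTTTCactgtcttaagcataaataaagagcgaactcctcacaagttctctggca
Gbp5 (chr3:142496684-142496933, plus strand): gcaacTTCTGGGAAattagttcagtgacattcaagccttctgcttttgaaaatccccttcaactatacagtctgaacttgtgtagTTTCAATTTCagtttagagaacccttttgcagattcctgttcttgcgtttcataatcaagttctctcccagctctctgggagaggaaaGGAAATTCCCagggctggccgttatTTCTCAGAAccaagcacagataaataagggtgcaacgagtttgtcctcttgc
Irf1 (chr11:53769764-53770013, plus strand): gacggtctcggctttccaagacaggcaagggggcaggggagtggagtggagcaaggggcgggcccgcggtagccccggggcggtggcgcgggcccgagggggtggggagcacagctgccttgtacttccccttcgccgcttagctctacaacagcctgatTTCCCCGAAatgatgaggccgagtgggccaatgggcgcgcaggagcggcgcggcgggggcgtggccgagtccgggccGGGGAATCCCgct
Cxcl9 (chr5:92328080-92328329, minus strand): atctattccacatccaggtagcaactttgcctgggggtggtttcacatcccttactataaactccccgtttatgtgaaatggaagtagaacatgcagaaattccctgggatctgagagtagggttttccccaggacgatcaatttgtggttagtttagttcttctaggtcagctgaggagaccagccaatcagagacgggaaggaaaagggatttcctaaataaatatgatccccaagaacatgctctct
Cxcl10 (chr5:92348890-92349139, minus strand): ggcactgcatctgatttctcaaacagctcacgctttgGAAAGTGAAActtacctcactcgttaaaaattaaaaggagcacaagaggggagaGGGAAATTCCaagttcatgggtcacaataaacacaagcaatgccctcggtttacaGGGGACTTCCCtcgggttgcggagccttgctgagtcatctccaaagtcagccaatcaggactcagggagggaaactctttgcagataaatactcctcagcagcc

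The ISRE core stood in the windows of 5 of the 8 genes (Gbp2, Gbp3, Gbp5, Cxcl10 and Socs1), against 2.98% of 32851 mouse promoter windows of the same length. The single match in Gbp2 began 59 bases before the start. Gbp3 and Socs1 had 2 matches each, which overlapped. GAS letters were found in Gbp5 (2 matches) and Irf1 (1 match, 90 bases before the start), against 7.02% of all windows. The NF-kappaB motif was found in Gbp5, Irf1 and Cxcl10, against 7.25% of all windows, and 2 of the 3 matches in Cxcl10 overlapped. The windows of Cxcl9 and Cd274 held none of the 3 sets of letters. These are matches of letters, not binding sites. The 3 guanylate-binding protein genes lie in 1 cluster with others of the family, with starts 63.1 kb (Gbp5 and Gbp3) and 60.6 kb (Gbp3 and Gbp2) apart on chromosome 3, and the Cxcl9 and Cxcl10 starts lie 20.8 kb apart on chromosome 5.

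Expression is given as FPKM, fragments scaled by transcript length and by the mapped fragments of the library, so levels can be set beside each other between genes. Differences between groups are RAAS-blocked minus untreated means of log2(FPKM + 1), a scale that understates changes of low genes. Of the 25791 symbols, 13286 reached 1 FPKM in at least 7 libraries and were tested, among them 7 of the 8 genes; Cxcl9 was too low in most libraries. Libraries had 16919 to 18613 symbols above 0, pairwise Pearson correlations of tested genes ran from 0.89 to 0.98, and no pair was identical. RAAS-blocked replicate 6 stood apart in the genes described here, and group differences are given with and without it. It had 18330 symbols above 0 and correlated at 0.89 to 0.95 with the other libraries.

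All 8 genes were far higher in RAAS-blocked replicate 6 than in any of the other 15 libraries, and in those 15 the 2 groups overlapped for every gene. In that library Gbp2, a large GTPase of the guanylate-binding protein (GBP) family that coats the vacuoles of intracellular pathogens, ranked 13th of all symbols by FPKM, while its median rank elsewhere was 7437. The ratio of replicate 6 to the median of the other 15 libraries ran from 17.3 for Irf1 to 636 for Cxcl9. Among all 13286 tested genes this ratio had a median of 1, reached 4 in 192 genes (1.45%) and reached 10 in 53 genes (0.399%). All 7 tested members were among those 53, as they were chosen with this library in view. A further 27 belonged to the related gene lists described below and 17 to none of the lists used here. The lists do not hold every gene of this kind: the 17 include the GTPase genes Mpa2l (ratio 145) and Tgtp (86.7), described below.

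Irf1 encodes a transcription factor that is itself an early target of interferon-gamma. It had the highest level of the 8 genes in most libraries, with 29.7, 40.4 and 605 FPKM as the lowest, median and highest of RAAS-blocked libraries, against 26.5, 35 and 75.5 FPKM in untreated libraries. Replicate 6 held the 605 FPKM, and the highest of the other RAAS-blocked libraries had 65.6 FPKM. The group mean was 121 ± 214 FPKM in RAAS-blocked libraries (SD, n = 7), or 40.4 ± 13.7 FPKM without replicate 6 (n = 6), against 44.3 ± 18.2 FPKM in untreated libraries (n = 9). One library thus moved the RAAS-blocked mean from below the untreated mean to above it.

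Gbp2 had 5.73, 11.4 and 1466 FPKM as the lowest, median and highest of RAAS-blocked libraries, against 5.54, 8.84 and 59.7 FPKM in untreated libraries. The mean was 220.1 ± 549 FPKM in RAAS-blocked libraries (SD, n = 7), or 12.5 ± 6.67 FPKM without replicate 6 (n = 6), against 17.3 ± 17.4 FPKM in untreated libraries (n = 9). The other RAAS-blocked libraries had at most 22.4 FPKM, and 2 untreated libraries, replicates 1 and 3, exceeded that with 59.7 and 29 FPKM.

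Gbp3 and Gbp5 belong to the same family, and GBP5 is known to promote assembly of the NLRP3 inflammasome. Gbp3 had 5.07, 11.7 and 358 FPKM as the lowest, median and highest of RAAS-blocked libraries, against 5.45, 6.99 and 44.4 FPKM in untreated libraries. Gbp5 was lower, with 1.4, 2.89 and 125 FPKM in RAAS-blocked libraries and 1.35, 1.96 and 6.33 FPKM in untreated libraries. Without replicate 6 the highest RAAS-blocked values were 27 FPKM for Gbp3 and 6.37 FPKM for Gbp5, so that for Gbp5 the top of both groups was nearly level. In GENCODE vM21 transcripts, 4.79% of the 50-base stretches of Gbp3 and 2.07% of those of Gbp2 also occur in other genes of the family (Gbp7 and Gbp11, and Gbp2b), so a small share of their reads could have been assigned either way.

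**Figure D1:**
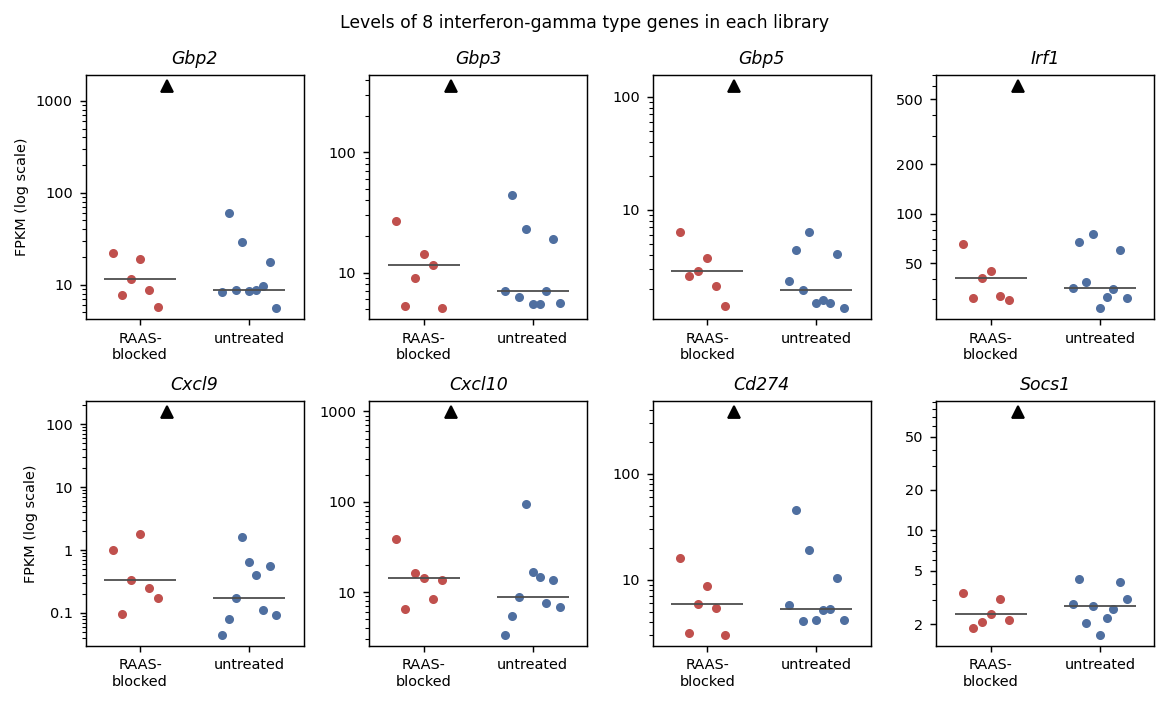
Level of each of the 8 genes in every library, in FPKM on a log scale, with RAAS-blocked libraries on the left and untreated libraries on the right of each panel. Points are single libraries, the black triangle is RAAS-blocked replicate 6, and lines are group medians. The triangle lies above all other points in every panel (1466 FPKM for Gbp2), while the remaining points of both groups overlap.

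Cxcl9 and Cxcl10 encode secreted chemokines that attract T cells and NK cells through the receptor CXCR3, and Cxcl9 is the one more strictly dependent on interferon-gamma. Cxcl9 had 0.0953, 0.333 and 157 FPKM as the lowest, median and highest of RAAS-blocked libraries, against 0.0453, 0.173 and 1.59 FPKM in untreated libraries. The next highest library, RAAS-blocked replicate 3, had 1.82 FPKM, so replicate 6 was 86.1 times the highest of the others, the widest such gap of the 8 genes. Cxcl10 had 6.59, 14.3 and 986 FPKM as the lowest, median and highest of RAAS-blocked libraries, against 3.4, 8.76 and 93.7 FPKM in untreated libraries. Its second highest library was untreated replicate 3 with 93.7 FPKM, ahead of RAAS-blocked replicate 0 with 38.8 FPKM. An exon of Art3 overlaps Cxcl10 on the opposite strand, and whether counting used strand is not given in the sources used here. Art3 itself had 7.37 to 41.8 FPKM over all libraries and 18.4 FPKM in replicate 6. In GENCODE vM21 Gbp2, Irf1 and Cd274 each overlap another annotated gene on the opposite strand.

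Cd274 encodes PD-L1, the ligand through which cells restrain T cells that carry PD-1. It had 3.05, 5.97 and 384 FPKM as the lowest, median and highest of RAAS-blocked libraries, against 4.13, 5.31 and 45.3 FPKM in untreated libraries. Without replicate 6 the RAAS-blocked mean was 7.08 ± 4.9 FPKM (SD, n = 6), against 11.5 ± 13.6 FPKM in untreated libraries (n = 9), where replicate 1 alone held the 45.3 FPKM. Socs1 encodes an inhibitor of JAK kinases that closes a feedback loop on the same pathway. It had 1.86, 2.37 and 76.3 FPKM in RAAS-blocked libraries as the lowest, median and highest, against 1.67, 2.74 and 4.36 FPKM in untreated libraries. Socs1 was the steadiest of the 8 genes in the other 15 libraries, which all lay between 1.67 and 4.36 FPKM.

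The group comparison asks whether these genes differed with blockade of the system, and the size and sign of the mean differences turned on 1 library. With all 16 libraries every one of the 8 differences was above 0, from 0.47 ± 0.51 (SE) for Irf1 to 1.12 ± 0.87 for Cxcl10 and 1.12 ± 0.82 for Cxcl9, whose value comes from the fit of every gene above 0. Without replicate 6 the differences ran from -0.35 ± 0.48 for Cd274 to 0.26 ± 0.55 for Cxcl10, with 4 genes above 0 and 4 below. Gbp2 differed by 0.79 ± 0.90 with replicate 6 and by -0.19 ± 0.45 without it. With all libraries 5 of the 8 standard errors (Gbp2, Gbp3, Irf1, Cd274 and Socs1) exceeded the difference itself.

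The count of calls among the members is likewise only a description. By limma, which fits all genes together, 0 of the 7 tested members passed a Benjamini-Hochberg adjusted p of 0.05, and 0 had an unadjusted p under 0.05, where 0.0151% and 6.13% of all tested genes did so. The median difference of the 7 was 0.72, against -0.017 for all tested genes. Without replicate 6 the median of the 7 was -0.09, again with 0 called and 0 at an unadjusted p under 0.05, and the shares of all genes were 0.00753% and 6.97%. The 2 genes that passed among all tested were Rn18s, an 18S ribosomal RNA gene (difference 11.76 ± 0.23, adjusted p = 3.55e-15), and Mgat1, a glycosyltransferase gene (difference -0.32 ± 0.05, adjusted p = 0.0441). They were named after their values were seen. Without replicate 6, Mgat1 had an adjusted p of 0.114. The description numbers of the samples run without a break within each group and do not interleave, so any shared handling of a group and the drug treatment cannot be told apart. This holds for Rn18s too, whose RNA was higher in the RAAS-blocked group. Whether Rn18s changed the FPKM scale of that group was not tested. Nothing in the labels states sample by sample that each library is a separate mouse, so p-values here reflect variation among libraries, part of which may be technical.

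**Figure D2:**
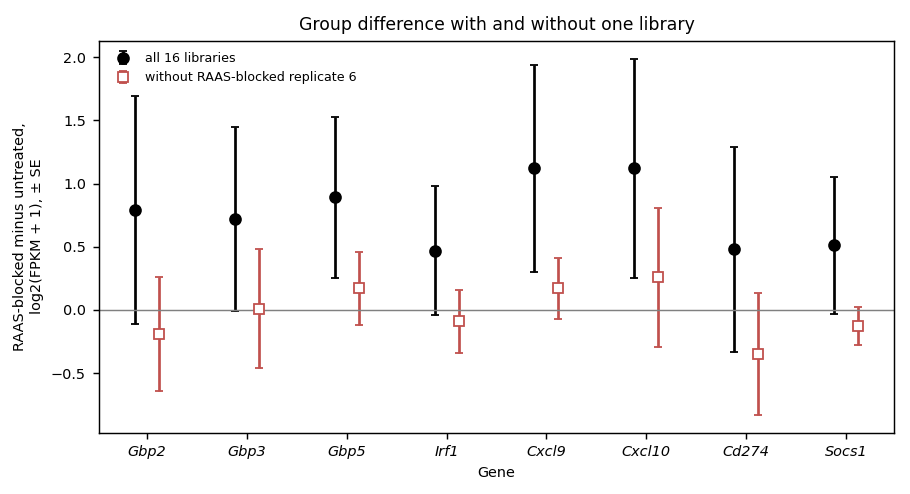
Difference between group means of log2(FPKM + 1), RAAS-blocked minus untreated, for each of the 8 genes, with bars of 1 SE. Black circles use all 16 libraries and all lie above 0. Open squares leave out RAAS-blocked replicate 6 and lie between -0.35 and 0.26.

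Spread between libraries was wide for these genes, and for most of them also without replicate 6. The SD of log2(FPKM + 1) within groups was 1.92 for Gbp2, 1.85 for Cxcl10, 1.72 for Cxcl9 and Cd274, and 1.08 for Irf1, the lowest of the 8, against a median of 0.23 over all tested genes. Gbp2 ranked 16th of 13286 in this measure. Without replicate 6 the SD was 1.12 for Cxcl10, 0.99 for Cd274, 0.97 for Gbp3 and 0.91 for Gbp2, each above at least 96.9% of tested genes. Gbp5 (0.58), Irf1 (0.50) and Cxcl9 (0.47) then lay above 90.6%, 87.2% and 85.8% of tested genes. Socs1 had an SD of 0.30, above 66.9% of tested genes. On this scale, which understates changes of low genes, the genes thus differed in how much they varied outside the extreme library. Cxcl10 and Cd274 lay at the upper end and Socs1 near the ordinary gene. Cxcl9 was low, at 0.0453 to 1.82 FPKM in the other 15 libraries, so its place in this order depends on the scale. With 0.1 in place of 1 added to FPKM, over all 16 libraries, its SD was 2.36, the highest of the 8, against 1.97 for Gbp2.

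The libraries behind the remaining spread were mostly the same few. Among the 15 libraries other than replicate 6, RAAS-blocked replicate 0 was in the top 5 for 8 of the 8 genes. Untreated replicates 3 and 7 were there for 7 genes each, and untreated replicate 1 and RAAS-blocked replicate 3 for 6 each. Both groups therefore held libraries with raised levels. For Gbp2 much of the lower part of the order was tightly packed. In it, 7 libraries from 7.69 to 9.72 FPKM followed each other with no clear step, and neither group kept to one side. Below them lay RAAS-blocked replicate 5 with 5.73 FPKM and untreated replicate 8 with 5.54 FPKM.

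Untreated replicates 1 and 3 had different mixtures of these genes. Replicate 1 had the highest Gbp2 (59.7 FPKM), Gbp3 (44.4 FPKM) and Cd274 (45.3 FPKM) of the 15, yet Cxcl9 at 0.0789 FPKM and Cxcl10 at 5.52 FPKM, second lowest of the 15 for both. Replicate 3 had 29 FPKM of Gbp2, but the highest Irf1 (75.5 FPKM) and Cxcl10 (93.7 FPKM) of the 15 and 1.59 FPKM of Cxcl9. Serpina3g, a protease inhibitor gene induced by interferon-gamma, followed the chemokines, with 2.99 FPKM in replicate 1 and 96.1 FPKM in replicate 3. Vcam1, an adhesion molecule gene, did likewise, with 3.16 and 164 FPKM, and was picked after its values were seen.

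Correlations of group-centred log2(FPKM + 1) over the 15 libraries, untreated replicates 1 and 3 among them, are given as a description, since all points share library and depth. Cd274 followed Gbp2 most closely (Spearman's rho 0.90, Pearson's r 0.98), with Gbp3 (0.85, 0.95), Irf1 (0.85, 0.89) and Gbp5 (0.85, 0.87) next. Cxcl10 followed it loosely (rho 0.34, r 0.37), as did Socs1 (0.49, 0.61) and Cxcl9 (0.51, 0.48). Cxcl9 and Cxcl10 followed each other (rho 0.86, r 0.79). Untreated replicates 1 and 3, the libraries farthest from the median of Gbp2, were then also left out (n = 13). Gbp2 correlated with Cd274 at rho 0.83 and r 0.93, with Irf1 at 0.82 and 0.88 and with Cxcl9 at 0.80 and 0.78. The values were 0.75 and 0.91 for Gbp5, 0.73 and 0.90 for Gbp3 and 0.61 and 0.58 for Cxcl10. Socs1 was lowest, at 0.31 and 0.48. Without untreated replicate 3 and RAAS-blocked replicate 3, farthest in Cxcl9, Cxcl9 and Cxcl10 correlated at rho 0.92 and r 0.92 (n = 13). Over these same libraries Cxcl9 and Gbp2 correlated at rho 0.30 and r 0.26. The relation of Gbp2 to Cxcl9 thus depended on which 2 libraries were left out. Replicate 6 was left out of these values because it stands apart from the rest.

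**Figure D3:**
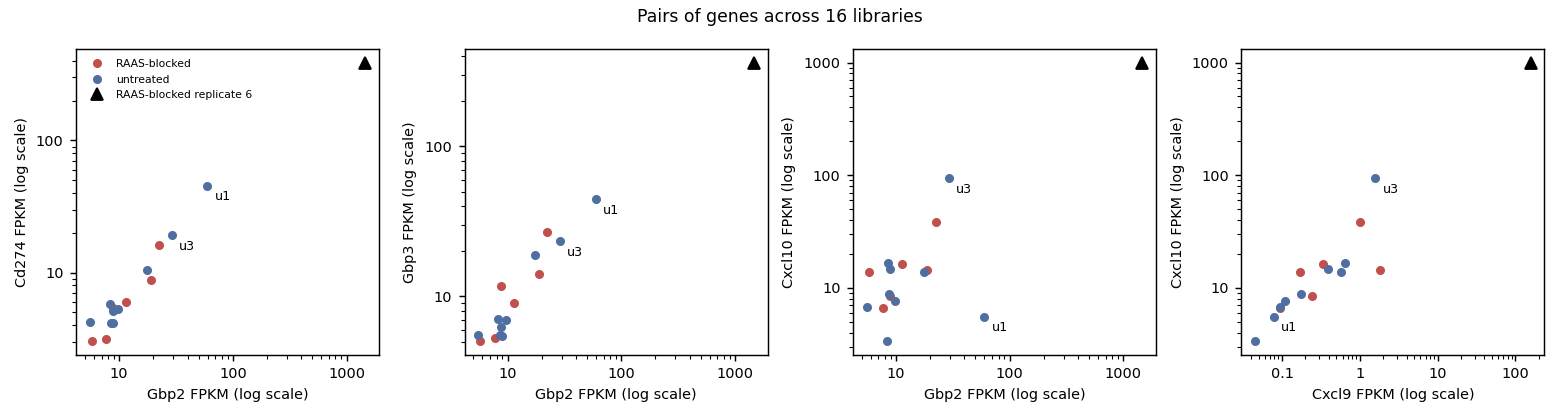
Pairs of genes across the 16 libraries, FPKM on log axes, with RAAS-blocked libraries in red, untreated libraries in blue and RAAS-blocked replicate 6 as a black triangle. Untreated replicates 1 and 3 are marked u1 and u3. Cd274 and Gbp3 rise along with Gbp2 through u3 and u1, whereas u1 lies low for Cxcl10 (5.52 FPKM) despite its Gbp2 (59.7 FPKM).

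The rest of the pathway was examined through lists of genes by role. Ifng, the ligand, was listed at 0 in 12 of 16 libraries. Its other values were 0.354 FPKM in RAAS-blocked replicate 6, 0.203 FPKM in RAAS-blocked replicate 0, 0.182 FPKM in untreated replicate 3 and 0.0378 FPKM in untreated replicate 7. Those 4 libraries were among the ones with raised members, but Ifng was listed at 0 in untreated replicate 1 and in RAAS-blocked replicate 3, which were also among them. The receptor genes did not pass the test. Ifngr1 had 76.4 ± 18.6 FPKM in RAAS-blocked libraries (SD, n = 7) and 68.1 ± 16.1 FPKM in untreated libraries (n = 9). Ifngr2 had 30.8 ± 4.24 FPKM in RAAS-blocked libraries and 30.3 ± 7.94 FPKM in untreated libraries, and limma adjusted p was 0.927 for Ifngr1 and 0.964 for Ifngr2. The differences were 0.15 ± 0.17 for Ifngr1 (0.11 ± 0.18 without replicate 6) and 0.06 ± 0.15 for Ifngr2 (0.09 ± 0.16 without it). The kinase genes did not pass the test either, with limma adjusted p of 0.891 for Jak1 (difference 0.13 ± 0.09, or 0.08 ± 0.09 without replicate 6) and 0.913 for Jak2 (0.14 ± 0.12, or 0.10 ± 0.12 without it).

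Stat2, a transcription factor of type I interferon signalling, had 83.6 FPKM in replicate 6, 7.4 times the median of the others, and a difference of 0.46 ± 0.37 (limma adjusted p = 0.901), or 0.08 ± 0.22 without replicate 6. Irf2, a factor related to Irf1, had 38.4 FPKM there, 1.72 times the median of the others, and a difference of 0.17 ± 0.14 (adjusted p = 0.902), or 0.06 ± 0.12 without replicate 6. Over the 13 tested genes of ligand, receptor and signalling, limma called 0, with 0 at an unadjusted p under 0.05, and the median difference was 0.15 (0.06 without replicate 6).

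The other GTPases of this response, GBPs and immunity-related GTPases (IRGs), which attack the vacuoles of intracellular microbes, were highest in replicate 6 for 10 of 10 tested genes, where 12.6% of all tested genes were highest in that library. Their median ratio to the other 15 libraries was 43.6. Igtp, an IRG, had 1090.5 FPKM there, and 9.13 to 44.9 FPKM in the other RAAS-blocked libraries, against 10.1 to 121 FPKM in untreated libraries. Iigp1 had 355 FPKM in replicate 6 and a difference of 0.98 ± 0.69 (limma adjusted p = 0.885), or 0.31 ± 0.46 without that library. Ifi47 had 638 FPKM and Gbp8 129 FPKM in replicate 6, 50 and 144 times the median of the others. By limma 0 of the 10 were called and 0 had an unadjusted p under 0.05. The median difference was 0.60 with replicate 6 and -0.11 without it.

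Other genes inducible by interferon-gamma, such as those for antigen processing and presentation, were highest in replicate 6 for 20 of 26 tested. The share of all tested genes was 12.6%, and the list's median ratio was 4.84. Limma called 0 of the 26, and 1 had an unadjusted p under 0.05, where 0.0151% and 6.13% of all tested genes did so. That gene was Serpina3g, with 7.66, 15.2 and 543 FPKM as the lowest, median and highest of RAAS-blocked libraries, against 2.35, 4.57 and 96.1 FPKM in untreated libraries. Its difference was 2.04 ± 0.90 (limma adjusted p = 0.797), or 1.38 ± 0.77 without replicate 6 (adjusted p = 0.749). The groups overlapped. Casp4, an inflammatory caspase gene, had a difference of 0.55 ± 0.33 (adjusted p = 0.855), or 0.36 ± 0.32 without replicate 6. Icam1, an endothelial adhesion molecule gene, had one of 0.51 ± 0.37 (adjusted p = 0.887), or 0.31 ± 0.36 without it. Ly6a was abundant in all libraries and had 2329.7 FPKM in replicate 6, 2.8 times the median of the others. The list's median difference was 0.26, or -0.06 without replicate 6.

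Type I interferon effectors, many of them shared with interferon-gamma, were highest in replicate 6 for 18 of 19 tested, against 12.6% of all tested genes. Their median ratio was 7.43, between the 43.6 of the GTPases and the 4.84 of the other interferon-gamma inducible genes. Ifit2, which binds viral RNA, had 90.6 FPKM in replicate 6 and 8.01 to 15.2 FPKM in the other RAAS-blocked libraries, against 8.7 to 16.1 FPKM in untreated libraries. Cmpk2 had 64.7 FPKM, Usp18, which dampens type I signalling, 34.7 FPKM, and Ddx58, the RNA sensor RIG-I, 23.1 FPKM in replicate 6. These were 6.64, 9.74 and 2.2 times the median of the others. By limma 0 of the 19 were called, 0 had an unadjusted p under 0.05, and the median difference was 0.29 (-0.02 without replicate 6).

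Negative regulators and checkpoint ligands limit the response. Replicate 6 was highest for 2 of 10 tested genes, near the 12.6% of all tested genes, and the median ratio was 1.44. Ptpn2, a phosphatase that acts on JAK1, was the 1 gene of 10 with an unadjusted p under 0.05, where 6.13% of all tested genes had one, and 0 were called. Its difference was 0.26 ± 0.11 (limma adjusted p = 0.755), or 0.21 ± 0.11 without replicate 6. Socs3, a feedback inhibitor related to Socs1, had 47.3 FPKM in replicate 6, 3.07 times the median of the others, and a difference of 0.49 ± 0.30 (adjusted p = 0.862), or 0.30 ± 0.28 without it. Cish had 9.55 FPKM and Ptpn11 53.8 FPKM there, 0.889 and 0.896 times the median. The list's median difference was 0.13 (-0.02 without replicate 6).

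NF-kappaB targets were highest in replicate 6 for 4 of 10 tested genes, against 12.6% of all tested genes, with a median ratio of 3.46. Ccl2, a chemokine gene for monocytes, had 140.2 FPKM there, 19.3 times the median of the others, and a difference of 0.97 ± 0.71 (limma adjusted p = 0.89), or 0.44 ± 0.61 without replicate 6. Cxcl1, a neutrophil chemokine gene, had 28.6 FPKM there, Relb 32.4 FPKM and Nfkb2 26.8 FPKM, which were 4.19, 2.03 and 1.72 times the median. By limma 0 of the 10 were called, 0 had an unadjusted p under 0.05, and the median difference was 0.36 (0.20 without replicate 6). Of a short list of receptor genes, only Cxcr7, a scavenger receptor gene for chemokines, was tested. Its difference was -0.27 ± 0.38 (limma adjusted p = 0.937), or -0.38 ± 0.40 without replicate 6. Cxcr3 was under 1 FPKM in 15 of 16 libraries, with 0.171 FPKM in replicate 6 and a highest value of 1.25 FPKM in untreated replicate 3.

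**Figure D4:**
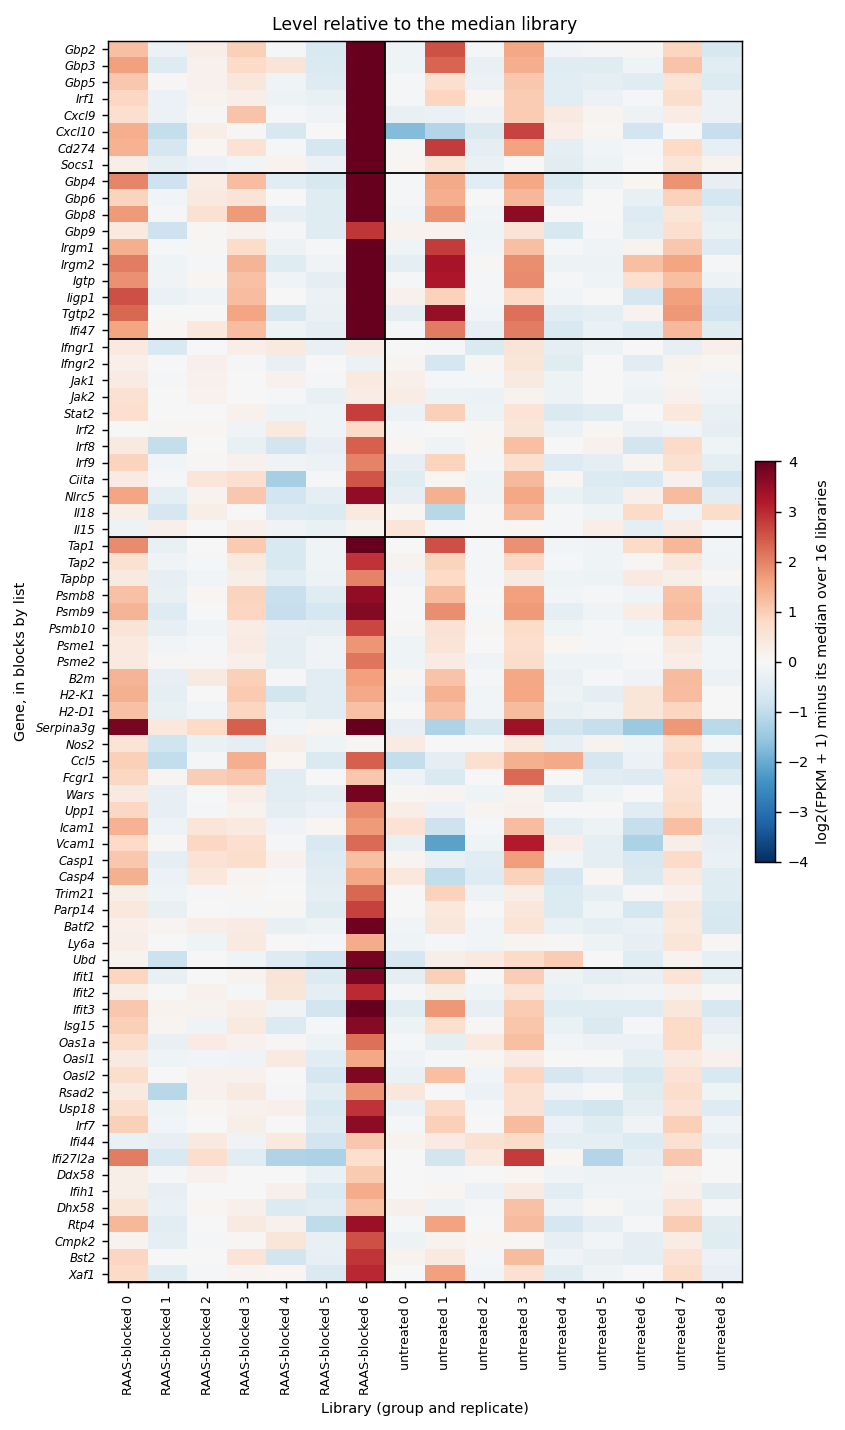
Level of the members and of 4 related lists (GBP and IRG GTPases, signalling, other interferon-gamma inducible genes, type I effectors, from top to bottom, separated by lines) in every library, as log2(FPKM + 1) minus its median over the 16 libraries. RAAS-blocked libraries are on the left and untreated libraries on the right of the vertical line, and the colour scale stops at 4 in either direction. RAAS-blocked replicate 6 is the darkest column, with all 10 GTPase genes at their highest there, and paler raised columns are seen in both groups.

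The 10 tested genes most like Gbp2 over the 16 libraries, by Spearman's rho after centring on group means, included Mpa2l, Irgm1, Tgtp2, Igtp, Psme1, Erap1, Psmb9, Psmb10 and Tgtp, at rho 0.98 to 0.94. RefSeq lists Mpa2l as an older name of Gbp6, a symbol that the table also holds in a row of its own. Irgm1, Igtp, Tgtp and Tgtp2 are IRG GTPases, Psmb9 and Psmb10 are subunits of the immunoproteasome, Psme1 is its activator, and Erap1 trims peptides for presentation. Of the 10, 2 (Mpa2l and Igtp) were also among the 10 most like Gbp2 without replicate 6. The rest of that second set were the type I interferon effectors Ifit3, Xaf1, Rtp4 and Oasl2, with Rab13, Ftsjd2, Gbp6 and Trim21. The genes most like Cxcl9 were Sptlc2, Vti1b, Ubd, Mrps33, Acsl5, Pomp, Tagap, Psme1, Tapbpl and Ly6a, at rho 0.81 to 0.76, and 0 of them were among its 10 most alike without replicate 6. This set of 10 genes thus changed with that library, while Cxcl10, which as a member is not in it, correlated with Cxcl9 without it, as given above.

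Markers of cell types were summed in each library to show what else moved with the members. In bulk RNA, fewer cells of a type and less RNA per cell cannot be told apart. The 17 markers of T and NK cells, the usual sources of interferon-gamma, summed to 6.41 FPKM in replicate 6, 10th of 16, within 3.09 to 11.3 FPKM in RAAS-blocked libraries and 3.66 to 18.1 FPKM in untreated libraries. None was at 0 in replicate 6, and Lck had the highest level at 2.37 FPKM. Single genes of this list went both ways: Cd3e (0.162 FPKM) ranked 15th of 16 and Cd3d (0.176 FPKM) and Nkg7 (0.374 FPKM) 11th, whereas Tbx21 (0.208 FPKM, 4.18 times the median of the others) ranked 3rd, Gzmb (0.623 FPKM, 3.29 times) 4th and Cd3g (0.618 FPKM, 2.18 times) 5th. The 5 B cell markers summed to 1.52 FPKM in replicate 6, with Pax5 listed at 0, within 1.48 to 4.11 FPKM in RAAS-blocked libraries and 0.739 to 8.81 FPKM in untreated libraries. Macrophage and dendritic cell markers (13 genes in the table) summed to 573 FPKM in replicate 6, the median of RAAS-blocked libraries, which spanned 302 to 1147 FPKM, against 139 to 2528 FPKM in untreated libraries. The 2528 FPKM was in untreated replicate 3, the library of highest Cxcl10 among the 15. Lyz2 made up 327 FPKM of the sum in replicate 6. Single genes of this list differed there: Itgam (14.7 FPKM, 3.24 times the median of the others) and Cd14 (55.4 FPKM, 3.09 times) ranked 2nd of 16. In contrast, C1qa, C1qb and Emr1 ranked 8th and C1qc 9th.

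Neutrophil markers (5 genes) summed to 1031 FPKM in replicate 6, second to the 2235 FPKM of RAAS-blocked replicate 0, within 64.6 to 2235 FPKM in RAAS-blocked libraries, against 26.4 to 809.6 FPKM in untreated libraries. Ly6g (6.07 FPKM) was the 1 gene of the 5 that was highest in replicate 6. Of the kidney's own cells, podocyte markers were highest in replicate 6 (4746 FPKM), within 1465 to 4746 FPKM in RAAS-blocked libraries, against 1859 to 4433 FPKM in untreated libraries. Endothelial markers were lowest there (1232 FPKM), within 1232 to 2595 FPKM in RAAS-blocked libraries, against 1643 to 3128 FPKM in untreated libraries. Proximal tubule markers were also lowest there (38.7 FPKM), within 38.7 to 555 FPKM in RAAS-blocked libraries, against 49.3 to 616 FPKM in untreated libraries, as were the 2 thick ascending limb markers (140 FPKM, within 140 to 759.9 FPKM in RAAS-blocked libraries, against 228 to 1456 FPKM in untreated libraries). Mesangial and smooth muscle markers summed to 1765 FPKM in replicate 6, within 538 to 2201 FPKM in RAAS-blocked libraries, against 192 to 804 FPKM in untreated libraries. Ren1, the renin gene, made up 1362 FPKM of that sum. The other 7 markers summed to 403 FPKM in replicate 6, the lowest of RAAS-blocked libraries (403 to 795 FPKM), against 185 to 613 FPKM in untreated libraries, and Itga8 (22 FPKM) and Gata3 (19.3 FPKM) were lowest of 16 there. The part of these markers in the levels of the 8 genes was not tested.

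**Figure D5:**
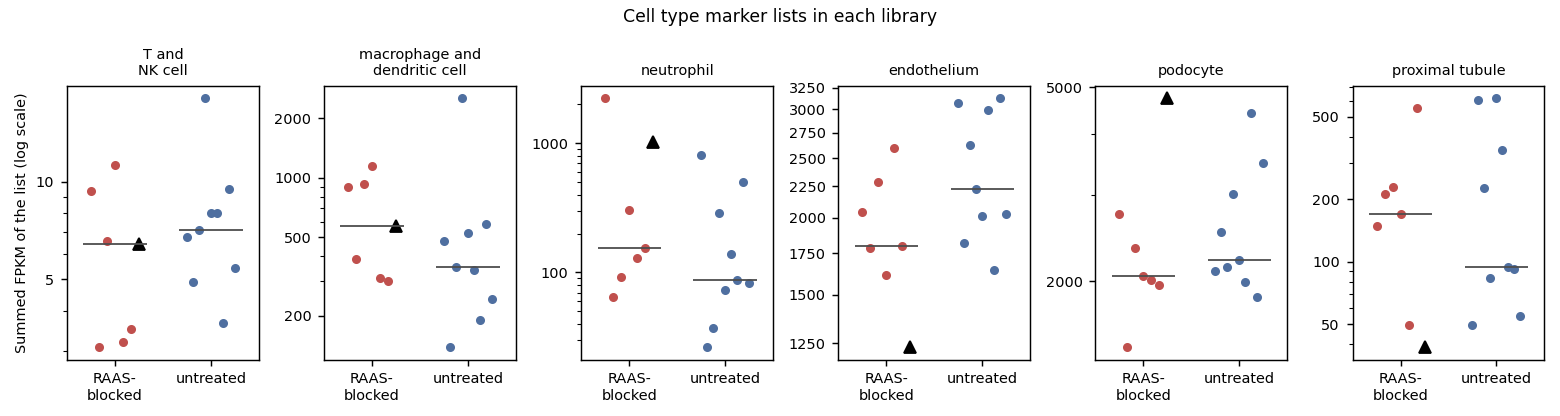
Summed FPKM of 6 cell type marker lists in each library, on log scales that differ between panels, with RAAS-blocked libraries on the left, untreated libraries on the right, lines at group medians and RAAS-blocked replicate 6 as a black triangle. Replicate 6 lies inside the range of the others for T and NK cells (6.41 FPKM), macrophages and dendritic cells (573 FPKM) and neutrophils (1031 FPKM), highest for podocytes (4746 FPKM) and lowest for endothelium (1232 FPKM) and proximal tubule (38.7 FPKM).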

How the data were processed

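Values are FPKM, computed by the authors and deposited as 1 column per library without counts, so depth is unknown and no count test was run. Tools listed in the submitters' processing notes, without their roles, are TopHat2 2.0.8, Cuffdiff 2.2.1, Cufflinks, CASAVA 1.8.2 and FastQC. The build, annotation and strand setting behind the table are not given in the sources used. Per the labels' protocols, RNA was from magnetically collected, iron-perfused glomeruli and libraries were TruSeq mRNA, although the source field says kidney. Groups came from sample titles. The 13286 genes that reached 1 FPKM in 7 or more libraries were fitted as log2(FPKM + 1) with limma 3.58.1 in R 4.3.3, with group as the only term, a robust, trended moderated variance, and Benjamini-Hochberg adjustment at 0.05. The fit was tested on simulated data. An abundant RNA in some libraries lowers the FPKM of all others there. Members and lists were chosen with earlier results of these data known. Besides the members, the genes named are Ifng, Ifngr1, Ifngr2, Jak1, Jak2 and Cxcr3, up to 4 genes per related list with the lowest p, the 10 most like Gbp2 and Cxcl9, and cell markers; some genes the rule takes are not reported here. Alternatives covered pseudocount, filter, scaling, quantile normalization, variance model, array weights, a replicate block and leaving out each library.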

Additional observations from a re-analysis of the deposited data

Results flagged for a closer look

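For each of the 8 genes, each group was searched for a library far from the others, by Dixon's criterion on log2(FPKM + 1) at the 95% level, which chance meets in about 1 in 20 groups. Of 16 such groups, 10 held one. RAAS-blocked replicate 6 stood far above the other 6 RAAS-blocked libraries for all 8 genes, with 1466 FPKM of Gbp2, 358 FPKM of Gbp3, 125 FPKM of Gbp5, 605 FPKM of Irf1, 157 FPKM of Cxcl9, 986 FPKM of Cxcl10, 384 FPKM of Cd274 and 76.3 FPKM of Socs1. Its gap to the next library filled from 0.625 (Gbp3) to 0.869 (Socs1) of the group's range, where 0.568 is the critical value for 7 libraries. Because the genes were chosen with this library in view, these 8 are a description.

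Untreated replicate 3 stood above the other 8 untreated libraries for the 2 chemokine genes, with 1.59 FPKM of Cxcl9 and 93.7 FPKM of Cxcl10. Their gaps filled 0.497 and 0.544 of the range, just past the critical value of 0.493 for 9 libraries. This library also had the highest sum of macrophage and dendritic cell markers (2528 FPKM).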

How the results depend on the processing

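With all 16 libraries limma called 2 genes. It called 1 under upper-quartile scaling, quantile normalization, plain moderated variance or a replicate block, and 11 with array weights. Leaving out 1 library gave 1 to 6 calls: 1 in 12 of the 16 fits, 2 in 2 fits, 6 without RAAS-blocked replicate 4 and 4 without untreated replicate 8. In every fit with 1 call the gene called was higher in the RAAS-blocked group, so Mgat1, which was lower there, was not called. The replicate block used the 7 numbers that both groups share. Same-numbered libraries deviated together at r of -0.28 to 0.43, 4 of 7 above 0.1, and 1 of 7 RAAS-blocked libraries matched its own number best. These values do not show a pairing by number and cannot exclude one. Each related list held 0 calls under every alternative.

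The 8 differences were above 0 under every alternative except leaving out RAAS-blocked replicate 6, with 5 of them fitted under the filter of 5 FPKM. Array weights gave 0.11 to 0.59. Without replicate 6 the within-group SD was 0.91 for Gbp2 (1.92 with it), 0.97 for Gbp3 (1.55), 0.58 for Gbp5 (1.36), 0.50 for Irf1 (1.08), 0.47 for Cxcl9 (1.72), 1.12 for Cxcl10 (1.85), 0.99 for Cd274 (1.72) and 0.30 for Socs1 (1.15). The median rho of the other members to Cxcl9 was 0.48 without it and 0.63 with it, where all 16 libraries enter. These changes came with the removal of that library, and why it stands apart was not tested. Precision is limited by 7 and 9 libraries of unknown depth, and Cxcl9 and Ifng lie near the lower end of detection.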
